A study of Mus musculus with 16 samples.

Results

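The proteasome is described here in the quadriceps of mice that overexpress a mitochondrial carrier, through every gene whose symbol starts with Psma, Psmb, Psmc, Psmd, Psme, Psmf or Psmg followed by a digit. This rule took 50 of the 19108 symbols in the deposited values. Of these, 49 are proteasome genes, grouped below by their place in the complex, and the remaining match, Psmc3ip, encodes no proteasome subunit. Of the 49, 47 passed the filter on low counts. Psma8, the testis form of an alpha subunit, had at most 3 counts in any library and Psmb11, the thymus form of a catalytic subunit, had at most 8, and neither was tested.

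The mice were C57BL/6 animals of 6 months. In each sex, 4 were wild type (WT) and 4 carried the ANT1(Tg)/+ genotype (Tg), heterozygous for a transgene of Ant1, which is now named Slc25a4 and encodes the ADP/ATP exchanger of the inner mitochondrial membrane. The labels do not name the promoter that drives the transgene or say whether all Tg mice descend from 1 founder. Each library is polyadenylated RNA of the whole quadriceps of 1 mouse, so it holds RNA of fibres, vessels, fat and resident blood cells, and a fall in RNA per cell cannot be told apart from fewer cells of a type. Total counts were 17435892 to 30680334 per library. The targeted gene matched the labels, with Slc25a4 at 3399 ± 408 counts per 1000000 counts (CPM; SD, n = 8) in WT and 9755 ± 876 CPM (SD, n = 8) in Tg. The tissue label matched its markers, since 10 muscle fibre genes summed to 154800 to 240500 CPM in WT and 146700 to 205300 CPM in Tg. Of these 10, 2 were called higher and 2 lower, 40% beside 30.4% of all tested genes. Their sums overlapped in females but not in males, at 194600 to 223400 CPM in WT males and 146700 to 187800 CPM in Tg males. None of 8 endothelial, 6 fibroblast and 10 adipocyte markers was called. WT female 1, WT female 2 and WT male 1 stood apart in adipocyte markers, whose 10 genes summed to 5772 to 6505 CPM there and to 654 to 3603 CPM elsewhere, and calls that are lost or gained without these 3 libraries, a choice made after seeing the data, are named.

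The 26S proteasome degrades proteins that carry ubiquitin chains. Its 20S core is a barrel of stacked rings, in which outer rings of alpha subunits gate the entry and inner rings of beta subunits hold the proteolytic sites, and a 19S regulatory particle of ATPase and non-ATPase subunits binds, unfolds and feeds the substrate. In skeletal muscle this machine removes myofibrillar proteins and is known for its induction in many forms of wasting. The transcription factor Nfe2l1, itself a proteasome substrate, raises the genes of all subunits together when proteolysis falls short, by binding antioxidant response elements in their promoters.

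Promoters in the RefSeq table of build GRCm38.p6 were searched on both strands for an antioxidant response element core, TGACNNNGC. The windows ran from 250 bases before each start site to 50 bases after it. The table held an entry for 42 of the 50 symbols. The 8 with none were Psma8, Psmb1, Psmb2, Psmb7, Psmc3, Psmd3, Psmd7 and Psmg2. The core was found in Psmb5, Psmb6, Psmc6, Psmd9, Psmd12 and Psme4, which is 14.3% of these 42 genes against 13.99% of the 27025 genes in the table. Of the genes called higher below, Psma4, Psma7, Psmb3, Psmb4, Psmd8, Psmd11, Psmd13, Psmf1 and Psmg4 have an entry and no match. The stretches that follow run 5′ to 3′ on the gene's strand and stop before the start site, with the match in capitals. In Psmb5 (chr14:54617996-54618102, minus strand), Psmb6 (chr11:70525288-70525356, plus strand) and Psmd9 (chr5:123228099-123228189, plus strand) the core reads forward. In Psmc6 (chr14:45329574-45329665, plus strand) and Psmd12 (chr11:107479278-107479349, plus strand) it lies on the opposite strand, so its reverse complement is in capitals. Psmd12 is shown because it holds a match and was not called below. The match in Psme4, which was called lower, spans the start site, where the printed stretches stop, and is not printed.
Psmb5: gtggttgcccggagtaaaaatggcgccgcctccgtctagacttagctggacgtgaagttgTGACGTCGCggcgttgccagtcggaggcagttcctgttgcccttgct
Psmb6: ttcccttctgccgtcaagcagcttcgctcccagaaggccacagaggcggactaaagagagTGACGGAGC
Psmd9: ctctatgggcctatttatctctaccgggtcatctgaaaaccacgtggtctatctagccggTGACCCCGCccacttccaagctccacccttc
Psmc6: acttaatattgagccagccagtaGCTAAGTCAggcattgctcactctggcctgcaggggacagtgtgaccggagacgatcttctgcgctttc
Psmd12: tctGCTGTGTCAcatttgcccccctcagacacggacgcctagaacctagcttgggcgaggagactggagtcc

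The match lies 47 bases before the start site in Psmb5, 9 in Psmb6, 31 in Psmd9, 227 in Psmc6 and 247 in Psmd12. Further motifs were searched in the same windows. A core of the C/EBP-ATF response element, TGATGNAA, was found in Psmd13 alone, 2.38% of the 42 genes against 4.51% of all genes. An interferon-stimulated response element core, GAAA, any 2 bases and GAAA again, was found in Psmb3, Psmd4, Psmd9, Psme1 and Psmg4, 11.9% against 3.99%. Such matches describe letters in these windows and not bound sites.

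Averaged over the sexes, 16 of the 47 proteasome genes were higher in Tg and 5 were lower, a gene being called at an adjusted p under 0.05 in edgeR's quasi-likelihood test with Benjamini-Hochberg adjustment over all 13666 tested genes. In all, 44.7% of the 47 were called, beside 30.4% of all tested genes. Those higher were 34.0% beside 17.2%, and those lower 10.6% beside 13.3%. The differences were small, 1.13-fold (Psmd13) to 1.33-fold (Psmb5) among the genes called higher. The median log2 fold change of the 47 was 0.10 beside -0.01 over all tested genes. Without scaling of the libraries beyond their totals the split was 24 higher and 2 lower. Without the 3 libraries rich in adipocyte markers it was 9 higher and 4 lower. That choice left WT female 3 and WT female 4 as the only WT females. With a macrophage marker score as a covariate it was also 9 and 4. With an adipocyte marker score as a covariate all 21 calls were kept, while Psme3 was also called higher and Psmb8 lower. Of the 16 genes called higher, 8 remained without the 3 libraries, and Psma4, Psmb3, Psmb6, Psmc6, Psmd3, Psmd8, Psmd9 and Psmd13 did not. The immune subunit Psmb10 was added. Of the 5 called lower, Psme2b did not remain.

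By place in the complex, with all 16 libraries, calls were found in every part but the immune subunits. In the 20S core, 8 of 14 tested constitutive subunits were called higher and none lower, and in the 19S particle 5 of 17 were called higher and 2 lower. Among the activators and the inhibitor that dock on the core, 1 was higher and 3 were lower, and among the assembly factors 2 of 7 were higher. Over all tested genes 17.2% were called higher and 13.3% lower. No difference between these parts was tested. The 3 tested immune subunits were not called. In 4 genes, Psma7, Psmb1, Psmb5 and Psmf1, all 8 Tg libraries lay above all 8 WT libraries, and in none did all lie below; over all tested genes 5.23% separated upward and 2.69% downward.

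**Figure D1:**
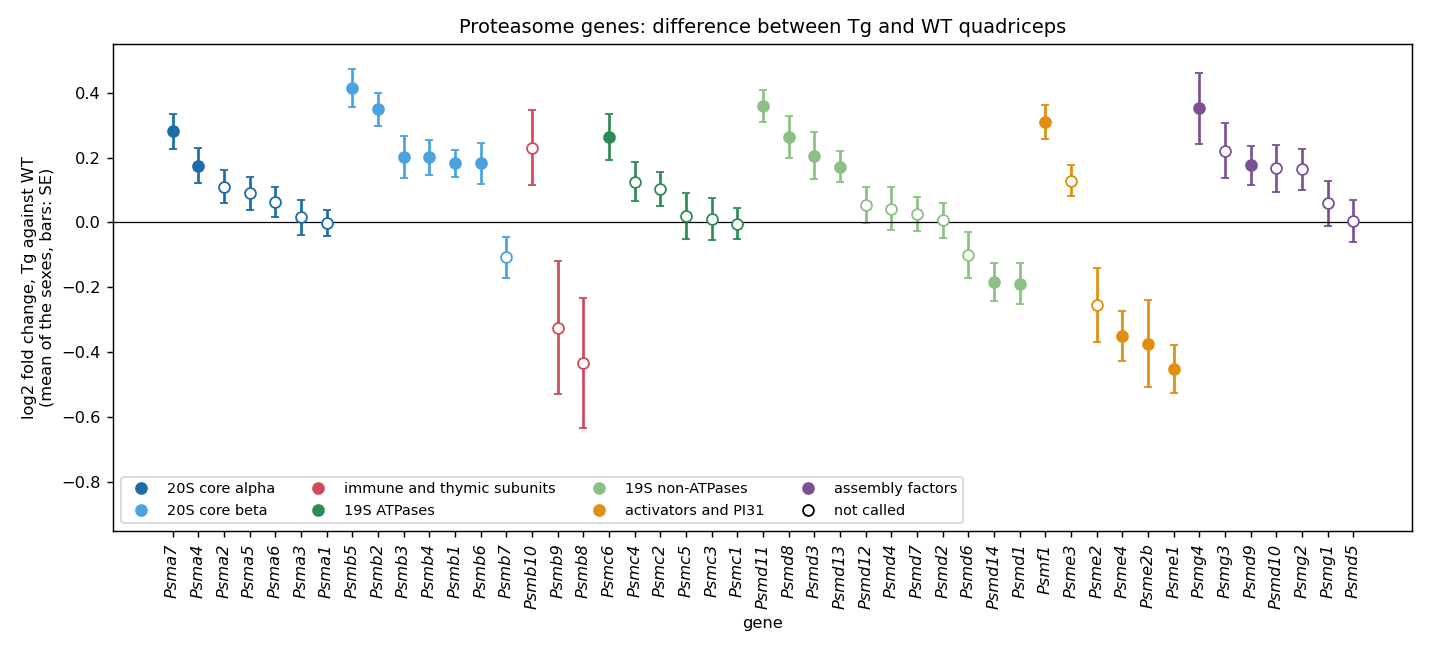
Log2 fold change of the 47 tested proteasome genes, Tg against WT averaged over the sexes, on the vertical axis with bars of 1 standard error. Colours mark the part of the complex, and filled points were called. The constitutive beta subunits other than Psmb7 lie above 0, from 0.18 to 0.41, and Psme1, Psme2b and Psme4 lie below, from -0.45 to -0.35. Of the immune subunits, none called, Psmb8 lies at -0.43, Psmb9 at -0.32 and Psmb10 at 0.23.

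Per kilobase of annotated exon, the constitutive beta subunits had the highest median of the parts, 108 CPM per kb. They spread widely, with Psmb1 at 29.9 and Psmb2 at 73.8 CPM per kb. Medians were 74.8 for the ATPases, 70.7 for the non-ATPase subunits, 58.2 for the alpha subunits, 19.5 for activators and inhibitor, 6.94 for assembly factors and 2.66 CPM per kb for the immune and thymic subunits. The alpha median includes the untested Psma8, and the immune and thymic median the untested Psmb11, each at 0.02 CPM per kb. Psmb7, Psmb6 and Psmb5, the catalytic subunits of muscle's standard core, led all members at 181, 156 and 124 CPM per kb. These lengths are unions of annotated exons, so a gene with long exons used elsewhere appears lower than it is.

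The alpha subunits form the gate of the core. Of 7 tested, 2 were called higher and none lower, beside 17.2% and 13.3% of all tested genes. Their median log2 fold change was 0.09. Psma7 (chr2:180036374-180042433 in build mm10), a subunit of the alpha ring, measured 81.55, 72.3, 70.4 and 74.2 CPM in WT females, 90.3, 85.9, 99.25 and 91.3 in Tg females, 82.7, 79.6, 81.85 and 77.2 in WT males and 94.5, 109, 86.5 and 96.15 in Tg males. Every Tg library exceeded every WT library, at 1.21-fold (log2 fold change 0.28, SE 0.05, edgeR adjusted p = 0.000719). Psma4, another subunit of that ring, measured 98.8, 83.8, 109.7 and 94.6 CPM in WT females, 116, 105, 115 and 101 in Tg females, 94.7, 90.6, 92.9 and 87.55 in WT males and 102, 104, 102 and 104 in Tg males. WT female 3 lay within the Tg range and the males did not overlap. Its fold was 1.13 (log2 fold change 0.17, SE 0.05, edgeR adjusted p = 0.0202), and its log2 fold change without the 3 libraries was 0.12 (adjusted p = 0.115). Psma1, Psma2, Psma3, Psma5 and Psma6 were not called, with log2 fold changes of -0.00 to 0.11.

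Among the constitutive beta subunits, 6 of 7 were called higher and none lower, beside 17.2% and 13.3% of all tested genes. Their median log2 fold change was 0.20. Psmb5 (chr14:54614119-54618022), the chymotrypsin-like protease of the core and the target of bortezomib, measured 99.4, 84.35, 82.2 and 106 CPM in WT females, 134, 126, 139 and 122 in Tg females, 93.6, 98.8, 107 and 94.8 in WT males and 125, 129, 121 and 126.5 in Tg males. The highest WT library lay below the lowest Tg library, and the fold was 1.33 (log2 fold change 0.41, SE 0.06, edgeR adjusted p = 5.22e-05), the largest rise among the 47. Psmb2 (chr4:126677630-126709714), a non-catalytic beta subunit, measured 53.1, 49.8, 49.5 and 56.5 CPM in WT females, 73.85, 65.3, 70.3 and 70.5 in Tg females, 65.5, 53.9, 63.2 and 55.1 in WT males and 69.5, 74.6, 71.8 and 71.85 in Tg males. Only WT male 1 at 65.5 CPM, just above the lowest Tg female, kept the genotypes from separating, and the fold was 1.27 (log2 fold change 0.35, SE 0.05, edgeR adjusted p = 8.47e-05).

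The other non-catalytic beta subunits Psmb1, Psmb3 and Psmb4 had log2 fold changes of 0.18 (edgeR adjusted p = 0.00323), 0.20 (0.0251) and 0.20 (0.011). Without the 3 libraries Psmb3 had 0.18 (edgeR adjusted p = 0.0962). Psmb1 ranged from 89.3 to 102 CPM with a median of 96.2 in WT and from 103 to 114 CPM with a median of 109.8 in Tg, with no overlap. Psmb6, the caspase-like protease, measured 123, 104, 105 and 129.7 CPM in WT females, 144, 130.4, 139 and 116 in Tg females, 116, 115, 126 and 116 in WT males and 132, 146, 121 and 133 in Tg males. Its groups overlapped, its log2 fold change was 0.18 (SE 0.06, edgeR adjusted p = 0.037), and its call was lost in 16 of 28 alternative settings, among them without the 3 libraries (0.15, adjusted p = 0.169). Psmb7, the trypsin-like protease, measured 226, 178, 236 and 227 CPM in WT females, 224, 205, 215 and 179 in Tg females, 219, 216, 229.8 and 208.5 in WT males and 197, 212, 183 and 201 in Tg males. WT female 2 was low for its group and the genotypes overlapped. Psmb7 was not called, with a log2 fold change of -0.11 (SE 0.06, edgeR adjusted p = 0.227). Exons of Nek6 on the opposite strand cover 34.9% of the exon bases of Psmb7, and whether the authors' counting used strand is not given in the sources used here.

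**Figure D2:**
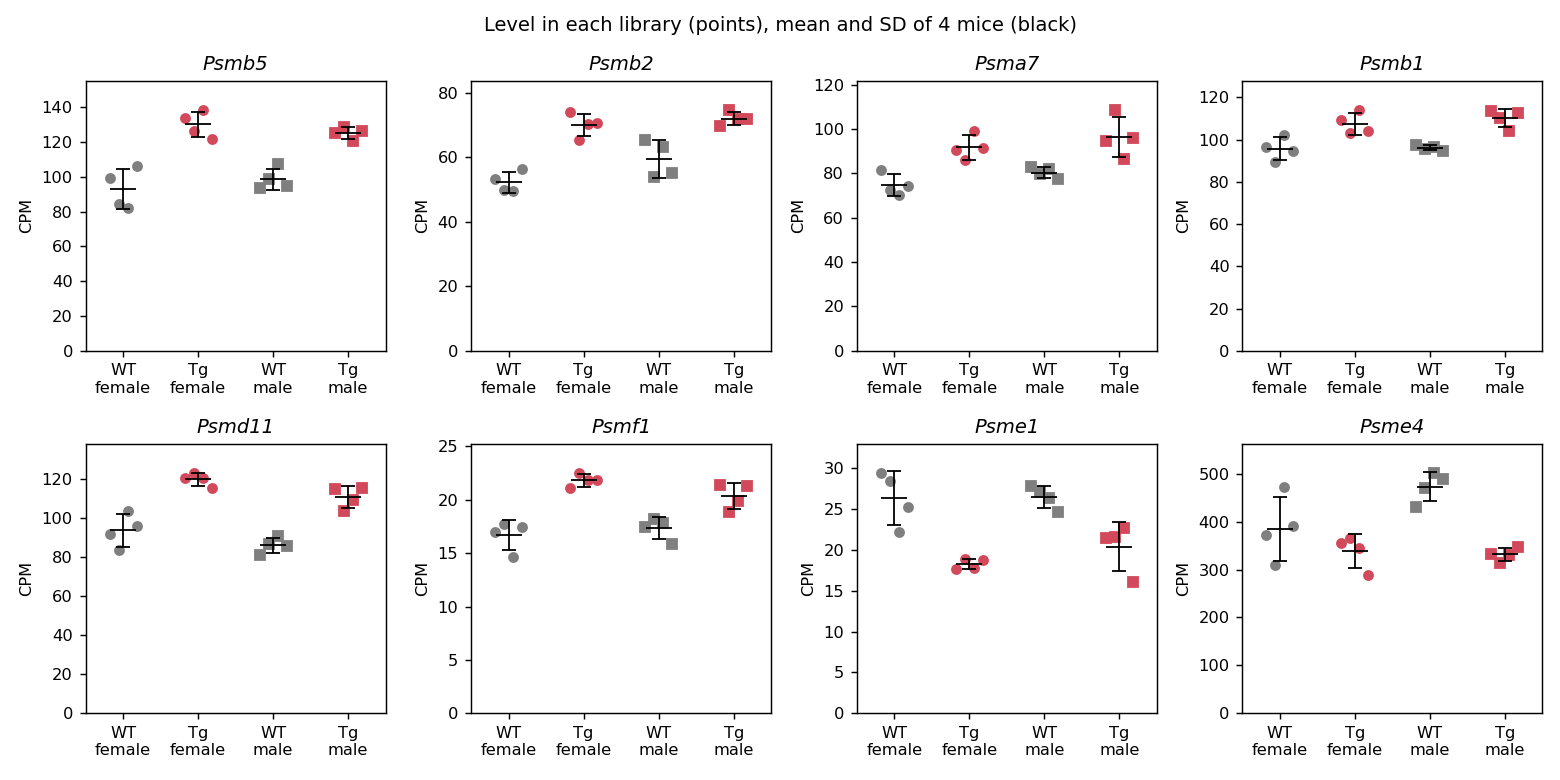
Level in CPM (vertical axis) of the 8 members whose call was kept in every alternative setting, with 1 point per library, mean and SD of the 4 mice of each group in black. In Psma7, Psmb1, Psmb5 and Psmf1 the Tg points lie above all WT points, in Psme1 the Tg points lie lower than in WT of the same sex, and in Psme4 the genotypes separate in males and overlap in females.

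The immune subunits Psmb8, Psmb9 and Psmb10 replace Psmb5, Psmb6 and Psmb7 in cores made under interferon-gamma and are abundant in blood cells. With all libraries none of the 3 was called. Psmb8 measured 9.59, 10.5, 5.76 and 4.69 CPM in WT females, 4.36, 4.265, 4.88 and 4.86 in Tg females, 9.225, 4.955, 4.65 and 5.87 in WT males and 5.97, 6.48, 6.99 and 3.09 in Tg males. High values were those of WT female 1, WT female 2 and WT male 1, at 9.225 to 10.5 CPM, while the other 5 WT libraries held 4.65 to 5.87 and the Tg libraries 3.09 to 6.99 CPM; the log2 fold change was -0.43 (SE 0.20, edgeR adjusted p = 0.12). It was -0.05 without those 3 libraries (edgeR adjusted p = 0.848), while Psmb8 was called lower in a fit without WT female 4 and in another with an adipocyte marker score as a covariate. Psmb9 measured 2.82, 3.801, 2.35 and 1.49 CPM in WT females, 1.89, 1.66, 1.93 and 1.32 in Tg females, 3.34, 1.48, 1.97 and 2.22 in WT males and 2.35, 2.54, 2.545 and 1.375 in Tg males. Its high values came from the same 3 libraries, and the log2 fold change was -0.32 with all libraries (SE 0.20, edgeR adjusted p = 0.253) and 0.00 without the 3 (adjusted p = 0.992). Exons of Tap1 on the opposite strand cover 15.7% of the exon bases of Psmb9, and whether the counting used strand is not given. Psmb10 measured 7.92, 9.63, 5.44 and 6.12 CPM in WT females, 8.61, 7.13, 9.09 and 7.54 in Tg females, 8.87, 6.57, 7.045 and 6.63 in WT males and 9.80, 8.595, 9.88 and 7.71 in Tg males. WT female 2 was high for its group, the genotypes overlapped, and the log2 fold change was positive at 0.23 (SE 0.12, edgeR adjusted p = 0.149). Without the 3 libraries Psmb10 was called higher, at 0.43 (edgeR adjusted p = 0.00376), and also without WT female 2. Without the 4 highest in adipocyte markers, which left WT female 4 as the only WT female, its log2 fold change was 0.39.

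A ratio of counts within a library is free of library scaling and shows how the counts of each immune subunit stood to those of its constitutive counterpart. These ratios are not corrected for exon length, which is 1628 bases for Psmb8 and 899 for Psmb5. Per kilobase of exon, the WT medians were 3.57 CPM for Psmb8 and 108 CPM for Psmb5. The 3 ratios were compared by an exact two-sided permutation test within sex, for which 4900 allocations set a smallest p of 0.000408. Psmb8 was 4.36 to 12.5% of Psmb5 in WT, median 6.62%, and 2.47 to 5.81% in Tg, median 3.76%. This ratio was 1.76-fold lower in Tg (log2 difference -0.82, -1.15 in females and -0.49 in males, exact permutation p = 0.00898, 0.0269 after Benjamini-Hochberg adjustment over the 3). Of its terms, Psmb5 was called higher and Psmb8 was not called. Leaving out WT female 1, WT female 2 and WT male 1 gave a difference of -0.46 (exact permutation test, adjusted p = 0.0686). The adjusted p also rose above 0.05 when Tg female 1 (0.0501), Tg female 2 (0.0501), WT male 4 (0.0564) or Tg male 4 (0.0526) was left out, with differences of -0.81 to -0.68 by the same exact permutation test.

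Psmb9 was 1.17 to 3.67% of Psmb6 in WT and 1.05 to 2.11% in Tg, a log2 difference of -0.47 that did not pass (exact permutation p = 0.0784, adjusted 0.0784). It was -0.15 without the 3 libraries (exact permutation test, adjusted p = 0.495). Without the 4 highest in adipocyte markers, which left WT female 4 as the only WT female, it was 0.09 and its sign turned. The ratio of Psmb10 had the opposite sign, at 2.32 to 5.41% of Psmb7 in WT, median 3.13%, and 3.49 to 5.40% in Tg, median 4.14%. That log2 difference of 0.35 did not pass after adjustment (exact permutation p = 0.0445, adjusted 0.0668). It was 0.60 without the same 3 libraries (exact permutation test, adjusted p = 0.0057). With all libraries the 3 differences did not share a sign.

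**Figure D3:**
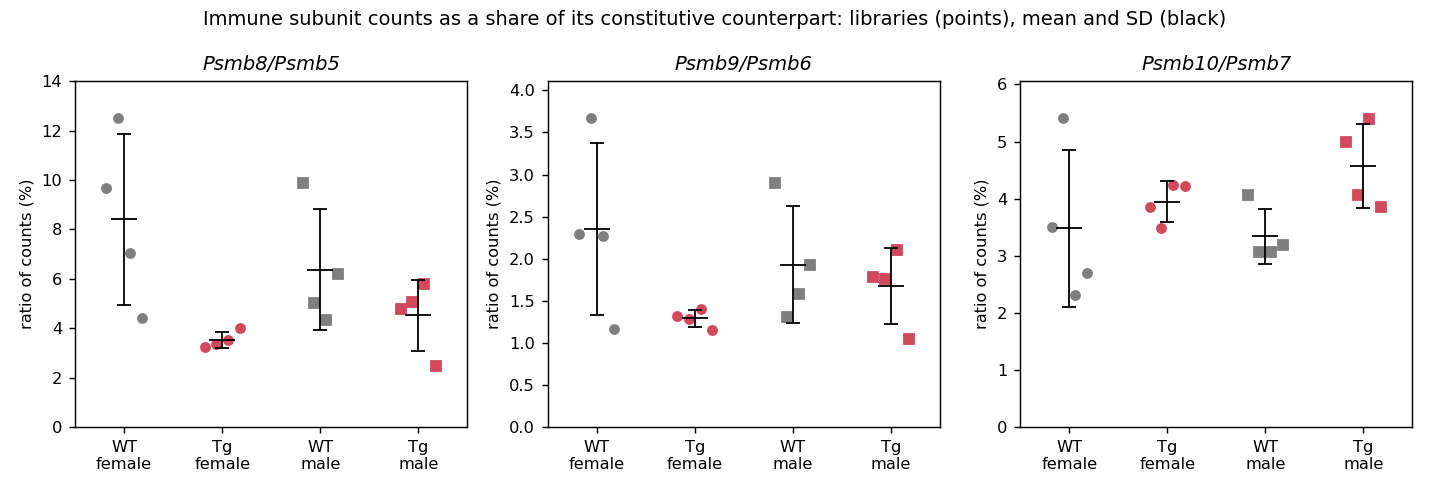
Count of each immune subunit as a percent of the count of its constitutive counterpart in the same library, by group, with 1 point per library and mean and SD of 4 mice in black. WT points reach 12.5% for Psmb8/Psmb5 and 3.67% for Psmb9/Psmb6, while Tg libraries stay at or below 5.81% and 2.11%.

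Another transcript of antigen presentation was high in the same libraries. B2m, the light chain of class I antigen presentation, was at 189 to 218 CPM in the 3 libraries, 61.6 to 138 CPM in the other WT libraries and 74.3 to 119.5 CPM in Tg. Macrophage markers, none of 10 called, summed to 90.8 to 285 CPM in WT and 51.4 to 261 CPM in Tg, and in the 3 libraries they were at 145 to 267 CPM. Lymphocyte markers summed to 2.65 to 8.91 CPM in WT and 1.74 to 6.08 CPM in Tg, and 8 of the 9 were too low to test. The remaining marker, Ptprc, the pan-leukocyte phosphatase, was called lower (log2 fold change -0.72, edgeR adjusted p = 0.0422). The part of fat, macrophages or lymphocytes in the levels of the immune subunits was not tested. Of 23 tested genes of interferon response and antigen presentation, 1 was called higher and 2 lower, beside 17.2% and 13.3% of all genes, with a median log2 fold change of -0.20. Those called, with their log2 fold changes, were the interferon-induced Ifit3 (0.76, edgeR adjusted p = 0.000218), the GTPase Igtp (-0.78, 3.64e-05) and the peptide trimmer Erap1 (-0.31, 0.00593). Irf1 (-0.12, edgeR adjusted p = 0.617), Tap1 (-0.30, 0.225) and B2m (-0.43, 0.234), which serve interferon signalling or peptide supply, were not called. Without the 3 libraries Irf1 had 0.14, Tap1 -0.03 and B2m 0.07. Without the 4 highest in adipocyte markers, which left WT female 4 as the only WT female, they had 0.43, 0.24 and 0.42. Each had turned positive there. In other alternatives Tap1 was called lower (without WT female 4), as was B2m (adipocyte marker covariate).

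The 19S ATPases form the ring that unfolds substrates. Of the 6, 1 was called higher, 16.7% beside 17.2% of all tested genes, and none lower. Psmc6 (chr14:45329788-45349705) measured 118, 99.96, 142 and 116 CPM in WT females, 157, 144, 151 and 126 in Tg females, 105, 108, 116 and 110.0 in WT males and 134, 115, 135 and 138 in Tg males. Tg libraries were higher than most WT libraries of their sex but overlapped them, at 1.2-fold (log2 fold change 0.26, SE 0.07, edgeR adjusted p = 0.00916), and the value without the 3 libraries was 0.17 (adjusted p = 0.0979). Psmc1, Psmc2, Psmc3, Psmc4 and Psmc5 were not called, with log2 fold changes of -0.00 to 0.13, and exons of Slc39a13 on the opposite strand cover 10.5% of those of Psmc3.

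Of the 11 non-ATPase subunits, 4 were higher and 2 lower, beside 17.2% and 13.3% of all tested genes. Psmd11 (chr11:80428615-80473248), a lid subunit that ties the 19S particle to the core, measured 91.7, 83.25, 103.5 and 95.8 CPM in WT females, 120.1, 123, 120.4 and 115 in Tg females, 80.8, 86.5, 90.45 and 85.7 in WT males and 115, 103, 109 and 115 in Tg males. In each sex all Tg libraries lay above all WT libraries, and only WT female 3 at 103.5 CPM reached the lowest Tg male. The fold was 1.28 (log2 fold change 0.36, SE 0.05, edgeR adjusted p = 3.91e-05), the smallest p among the 47. Psmd3 and Psmd13, also of the lid, had log2 fold changes of 0.21 (edgeR adjusted p = 0.0404) and 0.17 (0.0133). Psmd3 lost its call in 15 of 28 alternative settings and Psmd13 in 3, and without the 3 libraries they had 0.16 (edgeR adjusted p = 0.171) and 0.11 (0.15). Sirt3 exons on the opposite strand cover 17.2% of those of Psmd13.

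Psmd14, the enzyme that cuts ubiquitin chains off the substrate at the pore, and Psmd1, a large scaffold of the base, were lower. Psmd14 ranged from 55.03 to 70.8 CPM in WT, median 64, and from 51.4 to 62.2 CPM in Tg, median 54.9, with a log2 fold change of -0.18 (SE 0.06, edgeR adjusted p = 0.024). Psmd1 ranged from 204 to 275 CPM in WT, median 235, and from 188 to 235 CPM in Tg, median 207, with a log2 fold change of -0.19 (SE 0.06, edgeR adjusted p = 0.0312). In both the groups overlapped. Psmd14 lost its call in 3 of 28 alternative settings and Psmd1 in 9, in both cases also without scaling factors. Psmd2, Psmd4, Psmd6, Psmd7 and Psmd12, which include the ubiquitin receptor Psmd4, were not called, with log2 fold changes of -0.10 to 0.05.

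Psmd8 (chr7:29174188-29180701), a lid subunit needed for the lid to join the base, was also called between the sexes. It measured 119, 116, 113 and 142 CPM in WT females, 174, 177, 176 and 179 in Tg females, 237, 228, 229.7 and 227 in WT males and 228, 229, 192.5 and 271 in Tg males. The 4 WT females were the 4 lowest libraries, Tg females lay between them and the males, and WT and Tg males overlapped. In WT, males exceeded females 1.88-fold (log2 difference 0.91, SE 0.09, edgeR adjusted p = 2.53e-05), and this was the only call among the 47 between the sexes of WT, where 3.67% of all genes were called, 2.01% higher and 1.65% lower in males. Tg exceeded WT by 0.53 on the log2 scale in females (SE 0.09, edgeR adjusted p = 0.000937), and the same log2 difference was -0.00 in males (SE 0.09, edgeR adjusted p = 0.991). The male minus female difference of these effects was -0.53 (SE 0.13, unadjusted p = 0.000824, adjusted p = 0.211 in edgeR), which missed the threshold. DESeq2 called it (-0.55, adjusted p = 0.0162) and limma-voom did not (-0.54, adjusted p = 0.238). Averaged over the sexes, its log2 fold change was 0.26 (SE 0.06, edgeR adjusted p = 0.00541), and 0.22 (0.0576) when WT female 1, WT female 2 and WT male 1, rich in adipocyte markers, were left out. No annotated gene shares exons with Psmd8.

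**Figure D4:**
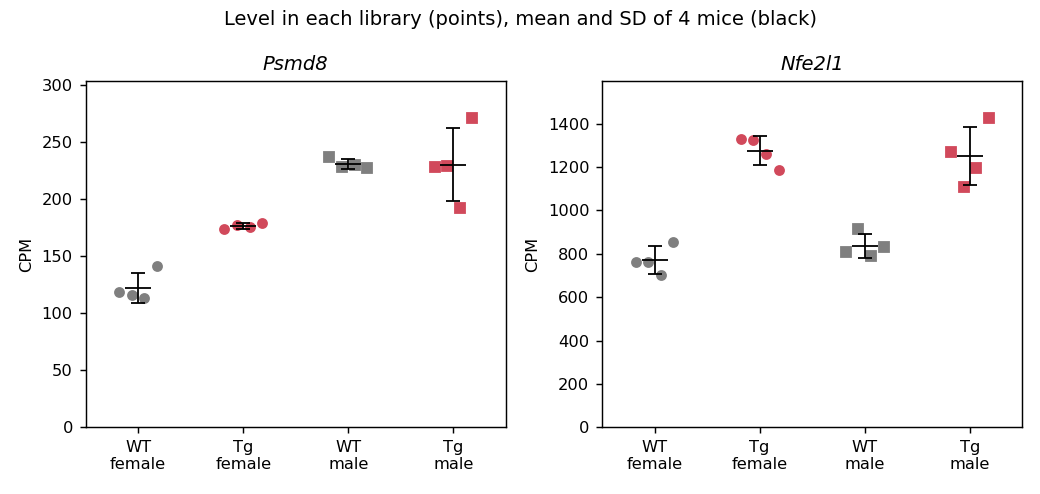
Levels in CPM of Psmd8, a 19S lid subunit, and of Nfe2l1, the transcription factor of proteasome genes, with 1 point per library and mean and SD of 4 mice in black. Psmd8 lies at 113 to 142 in WT females, 174 to 179 in Tg females and 193 to 271 in males of both genotypes, while Nfe2l1 lies at 700 to 917 in WT and 1107 to 1425 in Tg.

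Among the 6 genes of other caps, 3 activators were called lower and the inhibitor higher, beside 13.3% and 17.2% of all tested genes. Psme1 (chr14:55578123-55581529) and Psme2 encode the subunits of the interferon-inducible 11S activator, which opens the core for peptides without ubiquitin. Psme1 measured 29.4, 28.4, 22.2 and 25.3 CPM in WT females, 17.7, 18.9, 17.8 and 18.7 in Tg females, 27.8, 27.0, 26.4 and 24.6 in WT males and 21.4, 21.5, 22.6 and 16.0 in Tg males. All Tg libraries lay below all WT libraries of their sex, and only Tg male 3 at 22.6 CPM exceeded WT female 3 at 22.2 CPM. Psme1 was 1.37-fold lower (log2 fold change -0.45, SE 0.07, edgeR adjusted p = 0.000209), the largest fall among the 47. Its partner Psme2 measured 21.7, 24.2, 17.6 and 15.3 CPM in WT females, 15.7, 15.6, 17.9 and 17.7 in Tg females, 26.25, 17.96, 17.5 and 16.9 in WT males and 18.3, 12.8, 18.2 and 15.7 in Tg males, the groups overlapped in both sexes, and the log2 fold change was -0.25 (SE 0.11, edgeR adjusted p = 0.107). Psme2b, a nearly identical copy (transcripts 99.3% identical over 716 aligned bases), was called lower (-0.37, SE 0.13, edgeR adjusted p = 0.0457; -0.23, adjusted p = 0.253, without the 3 libraries), but how reads were divided between the copies is uncertain. In the 3 libraries rich in adipocyte markers Psme1 was at 27.8 to 29.4 CPM and in the other WT libraries at 22.2 to 27.0 CPM; the Tg libraries held 16.0 to 22.6 CPM. Without the 3 libraries Psme1 was still lower, by a log2 fold change of -0.39 (edgeR adjusted p = 0.0021).

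Psme4 (chr11:30771726-30880361), an activator of a single large chain that binds the core in the nucleus and is linked to acetylated histones, was named after its values were seen. It measured 371, 309, 471 and 389.8 CPM in WT females, 355, 367, 344 and 288 in Tg females, 431, 471, 502 and 488 in WT males and 333, 314, 331 and 348 in Tg males. The 4 Tg males lay well below the 4 WT males, and the females overlapped. The log2 fold change was -0.35 averaged (SE 0.08, edgeR adjusted p = 0.00263), -0.51 in males (adjusted p = 0.00376) and -0.19 in females (adjusted p = 0.252), and the interaction was -0.33 (SE 0.16, adjusted p = 0.673). Psme3, a nuclear relative of the 11S activator, had a log2 fold change of 0.13 (SE 0.05, edgeR adjusted p = 0.0516).

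Psmf1 (chr2:151715812-151744186), which encodes the core-binding protein PI31, first described as an inhibitor, was the member of this group that rose. It measured 16.9, 17.7, 14.6 and 17.5 CPM in WT females, 21.1, 22.5, 21.9 and 21.8 in Tg females, 17.5, 18.2, 17.8 and 15.8 in WT males and 21.4, 18.9, 19.9 and 21.3 in Tg males. No Tg library reached down to a WT library, and the fold was 1.24 (log2 fold change 0.31, SE 0.05, edgeR adjusted p = 0.000329).

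Assembly factors are chaperones that build the rings and leave the finished particle. Psmg4, a chaperone of the alpha ring, was the least abundant of those called and measured 2.18, 2.29, 1.975 and 2.21 CPM in WT females, 2.18, 2.96, 2.81 and 3.34 in Tg females, 3.21, 2.57, 2.60 and 2.64 in WT males and 3.62, 3.94, 2.81 and 3.44 in Tg males. The genotypes overlapped in both sexes, and the fold was 1.28 (log2 fold change 0.35, SE 0.11, edgeR adjusted p = 0.0226). Psmd9, a chaperone of the ATPase ring, measured 19.3, 19.9, 19.3 and 24.05 CPM in WT females, 26.05, 25.1, 22.25 and 23.2 in Tg females, 19.2, 19.6, 22.3 and 19.4 in WT males and 22.3, 23.3, 20.2 and 22.0 in Tg males, with WT female 4 and WT male 3 inside the Tg range of their sex. Its log2 fold change was 0.18 (SE 0.06, edgeR adjusted p = 0.0363), lost in 16 of 28 alternative settings, and 0.11 without the 3 libraries (adjusted p = 0.298). Psmg1, Psmg2, Psmg3, Psmd5 and Psmd10 were not called, and all 5 log2 fold changes were positive, from 0.01 to 0.22.

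Among 22 genes that regulate or serve the proteasome but lie outside the symbol rule, 8 were higher and 3 lower, beside 17.2% and 13.3% of all genes. Nfe2l1 measured 764, 762, 700.4 and 855 CPM in WT females, 1327, 1325, 1262 and 1184 in Tg females, 807, 916.5, 789 and 829.5 in WT males and 1269, 1107, 1197 and 1425 in Tg males. The genotypes did not overlap, and Nfe2l1 was 1.57-fold higher in Tg (log2 fold change 0.65, SE 0.06, edgeR adjusted p = 1.49e-06), more than any subunit. Others higher included, given with their log2 fold changes, Midn, which brings nuclear proteins to the proteasome without ubiquitin (0.61, edgeR adjusted p = 0.000578), the stress-induced zinc finger protein Zfand2a (0.36, 0.000237), and the shuttle Ubqln2 (0.35, 0.000721). Akirin2, which carries proteasomes into the nucleus, had a log2 fold change of 0.28 (edgeR adjusted p = 0.00387), the 19S-bound thioredoxin Txnl1 0.26 (0.00294), and the shuttle Rad23b 0.18 (0.0455). Without the 3 libraries rich in adipocyte markers these had 0.19 (edgeR adjusted p = 0.0592), 0.19 (0.0503) and 0.08 (0.368), and Rad23b lost its call in 17 of 28 alternative settings. Lower were the ligase Ube3c (-0.31, edgeR adjusted p = 0.00111), Ngly1, the glycanase that activates the Nfe2l1 protein (-0.30, 0.00274), and the shuttle Ubqln4 (-0.23, 0.00436). The 19S subunits Adrm1 and Sem1, the core chaperone Pomp, the deubiquitinases Usp14 and Uchl5 and the Nfe2l1 protease Ddi2 were among the 11 not called.

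In females 8 of the 47 were called higher and 1 lower, beside 10.1% and 7.57% of all genes. In males 6 were higher and 2 lower, beside 9.85% and 8.39%. Psma7, Psmb2, Psmb5, Psmd11 and Psmf1 were higher and Psme1 was lower in both sexes. Psmb3, Psmb4 and Psmd8 were called in females alone, and Psmb1 and Psme4 in males alone, but no member was called in the interaction, where 0.00732% of all genes were. At an unadjusted p under 0.05 edgeR counted 1 member in the interaction, Psmd8. DESeq2 counted 2 and called 1, and limma-voom counted 2 and called 0. The sign was the same in both sexes for 38 of the 47. In females, macrophage markers had a median log2 fold change of -0.98 and adipocyte markers of -1.13, and in males of 0.08 and -0.43. Without the 4 libraries highest in adipocyte markers, which leaves a single WT female whose spread is taken to be that of the other groups, no member was called in females.

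**Figure D5:**
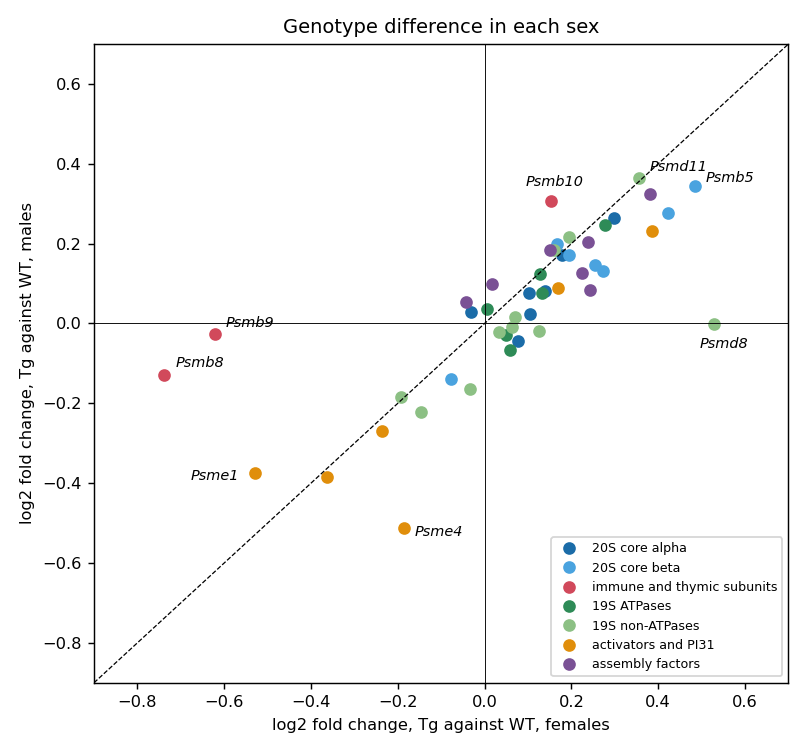
Log2 fold change of each tested proteasome gene, Tg against WT, in females (horizontal axis) and in males (vertical axis), with colours for the part of the complex and a dashed line where both are equal. Most of the 47 points, 38, share a sign. Among the points away from the dashed line are Psmd8 (0.53 in females, -0.00 in males) and Psmb8 (-0.74 in females, -0.13 in males). Psmb9 (-0.62 in females, -0.03 in males) and Psme4 (-0.19 in females, -0.51 in males) also lie away from it.

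Summed over all members, the proteasome transcripts came to 3842 to 4731 CPM in WT and 4249 to 4873 CPM in Tg, with WT female 2 lowest. The summed core, alpha and beta together, stood to the summed 19S particle at 0.564 to 0.614 in WT, median 0.587, and at 0.607 to 0.642 in Tg, median 0.621. These ratios overlapped between the genotypes through WT female 1 and WT female 2, and were not tested.

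Of the 21 calls, 8 were kept in each of the 28 alternative settings, which changed the test, the scaling, the filter, the libraries or a marker covariate. They were Psma7, Psmb1, Psmb2, Psmb5, Psmd11 and Psmf1, all higher, and Psme1 and Psme4, both lower. The other 13 were lost in at least 1 setting, most often Psmb6, Psmd3, Psmd9 and Psme2b.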

How the data were processed

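Polyadenylated RNA of 16 quadriceps, 4 per sex and genotype, was sequenced from TruSeq stranded libraries, per the labels. The authors made the deposited values, read here as estimated counts for each gene symbol, after trimming and alignment, per the submitters' processing notes, and stated no unit: none is below 0, some are fractions, and library totals differ. Build mm10 and the tools cutadapt 1.2.1, Bowtie2, TopHat2 and bcl2fastq are listed in the submitters' processing notes. The gene-counting program, its gene models and its strand setting are not stated in those notes or the labels. Replicates are numbered in order of deposition. Within groups the lowest median chi-square per gene between libraries was 1.19, against 0.455 for 1 library counted again, so none was taken as a duplicate.

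The estimated counts were rounded, and 7 members held values that were not whole. In R 4.3.3, edgeR 4.0.16 scaled libraries by TMM (trimmed mean of M-values, factors 0.887 to 1.10), kept 13666 genes (filterByExpr, minimum count 10, minimum total 15) and fitted 1 mean per group with robust quasi-likelihood dispersion. Contrasts were Tg against WT averaged over the sexes and within each, their difference (the interaction), and males against females in WT. The standard error (SE) is the log2 fold change divided by the square root of F. Genes were called at an adjusted p under 0.05, two-sided. CPM use TMM-scaled totals, and a count of 0 allows up to 3 counts, 0.101 to 0.165 CPM, for counting error only. Ratios add 0.5 to each count. Alternatives used DESeq2 1.42.0, limma 3.58.1 (voom), other scalings and filters, fewer libraries and marker covariates. The count model was tested on simulated data. Positions and exon lengths are from GENCODE M21 (mm10), promoters from RefSeq (GRCm38.p6).

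Members, parts and gene lists were chosen with earlier results of these data known. Values per library are given for the 2 called members of smallest adjusted p in each part, the catalytic subunits and their immune counterparts, Psme1, Psme2 and Nfe2l1, and other called genes by their log2 fold change. Some genes of the lists are counted but not reported here by name.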

Additional observations from a re-analysis of the deposited data

Results flagged for a closer look

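In 59 genes, the 48 tested symbols of the rule and the 11 partners called, with 4 groups of 4 mice each, 13 of 236 groups held a library far from the other 3 of its group; chance alone sets about 1 in 20 groups apart. Psmb7 was at 178 CPM in WT female 2 (others 226 to 236), and Psmc1 at 99.9 CPM in the same library (others 116 to 119). Psmc2 was at 136 CPM in Tg female 4 (others 153 to 155), and Psmd7 at 153 CPM in the same library (others 173 to 175). WT male 1 was high in Psme2, at 26.25 CPM (others 16.9 to 17.96), and in Psmg4, at 3.21 CPM (others 2.57 to 2.64). WT male 3 was high in Psmb6, at 126 CPM (others 115 to 116), and in Psmd9, at 22.3 CPM (others 19.2 to 19.6). Psmd9 was also high in WT female 4, at 24.05 CPM (others 19.3 to 19.9). Tg male 4 was low in Psmb9, at 1.38 CPM (others 2.35 to 2.55), and high in Midn, at 35.5 CPM (others 28.1 to 29.1). Psmd10 was at 10.7 CPM in Tg male 1 (others 8.77 to 8.94) and Txnl1 at 57.3 CPM in WT female 3 (others 47.7 to 49.0).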

How the results depend on the processing

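No paired analysis was possible because replicates carry numbers from deposition order alone, which tie no Tg mouse to a WT mouse. Of the 21 calls, 8 were kept in all 28 alternatives. DESeq2 called 2 members lower in females and 1 lower in the interaction. Without scaling factors, 2 were lower averaged over the sexes, 14 higher in females, and 16 higher and 1 lower in males; no setting moved the median of all genes by more than 0.07. Without a filter, 3 were lower. Leaving out the 4 libraries highest in adipocyte markers left WT female 4 as the only WT female. The log2 difference of Psmb8/Psmb5 was then -0.29 and that of Psmb10/Psmb7 0.54, while that of Psmb9/Psmb6 turned to 0.09. In that setting log2 fold changes turned to 0.43 for Irf1, 0.42 for B2m, 0.24 for Tap1, 0.18 for Psmb9 and 0.03 for Psmb8. Without the 3 highest, chosen after seeing the data, 9 were higher averaged and 2 were lower in females. The log2 differences were then -0.46 for Psmb8/Psmb5 (adjusted exact permutation p = 0.0686) and 0.60 for Psmb10/Psmb7 (0.0057). An adipocyte covariate gave 2 lower in females, and a macrophage covariate 9 higher averaged and 5 in females. The cause of these shifts was not tested.

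Leaving out 1 library in turn gave 12 to 20 members higher and 2 to 7 lower averaged, 6 to 12 higher and 1 to 3 lower in females, 2 to 7 higher and 1 to 3 lower in males, 1 to 2 higher in WT males over WT females, and 0 in the interaction. Males gave 2 higher without WT male 2 or WT male 4. Averaged, 2 were lower without WT male 3 and 3 without WT female 1 or 3 or Tg female 3 or 4. In females, 2 were lower without WT female 2 and 3 without WT female 4, and in males 1 without Tg male 4. The log2 ratio differences ranged from -0.96 to -0.68 for Psmb8/Psmb5 (adjusted exact permutation p = 0.011 to 0.0564), from -0.62 to -0.34 for Psmb9/Psmb6 (0.0318 to 0.166) and from 0.27 to 0.47 for Psmb10/Psmb7 (0.00858 to 0.118). Psmb8/Psmb5 lost its call without Tg female 1, Tg female 2, WT male 4 or Tg male 4. Psmb9/Psmb6 gained one without WT female 4, and Psmb10/Psmb7 without WT female 2 or WT male 1.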
